A study of Homo sapiens with 24 samples.

Results

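The promoters of 10 genes for G protein-coupled receptors that act on insulin secretion were examined for H3K4me3 in EndoC-βH3 cells, out of 20020 protein-coding genes. The genes were chosen by name, as GLP1R, GIPR, GCGR, FFAR1, ADRA2A, CHRM3, SSTR2, SSTR3, SSTR5 and PTGER3. For each gene, all H3K4me3 regions of the authors' table that overlap a window of 2 kb upstream and downstream of an annotated start site were listed, and the one with the largest mean normalized count served as its main promoter region. Of the 10 receptor genes, 9 had such a region and GCGR had none, whereas 15085 of all protein-coding genes (75.3%) had one.

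EndoC-βH3 is a line of beta-like cells from a human fetal pancreas, immortalized with hTERT and the SV40 large T-antigen, and it also carries a CreER recombinase. The series compared 4 non-senescent control samples with 4 samples made senescent by 3 weeks of 4-hydroxytamoxifen, which lets the recombinase cut out both transgenes. All samples came from this one line, which the labels give as wild type, and 500000 cells were taken for each. The mark was measured by MINT-ChIP, a ChIP-seq method that tags the chromatin of each sample with a barcode and immunoprecipitates the pool, and 16 samples of H3K27me3 and H3K9me3 from the same experiment are not analysed here.

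The level of a region is the authors' mean of normalized read counts over the 8 H3K4me3 samples, so senescent and non-senescent cells are averaged in every value given here. A mean of this kind carries no spread between samples, and how deeply each was sequenced is unknown. No difference between the states was therefore estimated, no error can be attached to a level, and whether neighbours in an order of levels differ beyond replicate error was not tested. Since regions differ in width, levels of different genes are compared as mean normalized counts per kb of region.

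H3K4me3, trimethylation of lysine 4 on histone H3, marks the nucleosomes around start sites of active genes and of genes poised for activity, and it lies preferentially over CpG-rich promoters. In the beta cell, receptors coupled to Gs raise cyclic AMP and amplify glucose-stimulated insulin secretion. Receptors coupled to Gq act through phospholipase C and calcium, and those coupled to Gi or Go lower cyclic AMP, open potassium channels and restrain secretion.

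The promoter sequences of 4 genes are shown first, because the order of these promoters by CpG content was not their order by H3K4me3. They are taken from RefSeq (build GRCh38.p14), run from 250 bases before the start site to 50 bases after it, and are written 5′ to 3′ on the strand of the gene, with every CpG dinucleotide in capitals. All 4 genes lie on the plus strand. The promoter of GCGR (chr17:81803900-81804199) stands for a gene with no H3K4me3 region, that of GLP1R (chr6:39048531-39048830) for the lowest level and that of ADRA2A (chr10:111076779-111077078) for the middle one. That of GIPR (chr19:45667971-45668270) was added after the values were seen, as a CpG-poor promoter under a strong region.
GCGR: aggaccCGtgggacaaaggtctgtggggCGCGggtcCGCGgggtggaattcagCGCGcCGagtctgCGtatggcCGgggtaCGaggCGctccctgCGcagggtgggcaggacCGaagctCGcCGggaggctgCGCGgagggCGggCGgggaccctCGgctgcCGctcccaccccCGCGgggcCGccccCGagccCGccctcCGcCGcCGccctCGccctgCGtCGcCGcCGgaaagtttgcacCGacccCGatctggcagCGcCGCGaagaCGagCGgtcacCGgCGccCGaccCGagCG
GLP1R: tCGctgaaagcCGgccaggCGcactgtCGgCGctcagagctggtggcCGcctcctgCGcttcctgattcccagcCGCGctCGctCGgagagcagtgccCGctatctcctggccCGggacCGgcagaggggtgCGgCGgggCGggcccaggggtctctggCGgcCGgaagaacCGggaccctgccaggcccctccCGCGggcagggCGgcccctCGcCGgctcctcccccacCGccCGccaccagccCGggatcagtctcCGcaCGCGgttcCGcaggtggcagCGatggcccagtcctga
ADRA2A: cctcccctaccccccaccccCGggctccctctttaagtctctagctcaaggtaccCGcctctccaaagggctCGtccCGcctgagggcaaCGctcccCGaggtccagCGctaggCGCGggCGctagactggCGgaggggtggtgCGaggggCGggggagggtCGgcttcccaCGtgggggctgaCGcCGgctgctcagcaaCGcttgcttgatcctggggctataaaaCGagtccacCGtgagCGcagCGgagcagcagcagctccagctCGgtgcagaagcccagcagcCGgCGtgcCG
GIPR: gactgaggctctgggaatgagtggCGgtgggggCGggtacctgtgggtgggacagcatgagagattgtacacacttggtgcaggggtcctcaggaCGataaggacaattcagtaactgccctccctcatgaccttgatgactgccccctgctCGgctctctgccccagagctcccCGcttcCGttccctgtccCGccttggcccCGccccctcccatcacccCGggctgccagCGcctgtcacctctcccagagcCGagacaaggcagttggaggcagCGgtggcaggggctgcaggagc

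The GCGR sequence held 47 CpG dinucleotides, the GLP1R sequence 33, the ADRA2A sequence 26 and the GIPR sequence 12. The median over 15345 protein-coding promoters was 22. Of the 9 receptors with a RefSeq promoter, the 2 with the most CpG were thus the one without a region and the one with the weakest region.

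The order of the 9 main promoter regions by level per kb began with PTGER3 (35.1 mean normalized counts per kb), GIPR (32.1), SSTR2 (30.1) and CHRM3 (25.7). ADRA2A (19.0) lay almost exactly at the median of all genes with a region, which was 19.0 as well, and FFAR1 (17.3), SSTR3 (13.7), SSTR5 (11.5) and GLP1R (4.65) followed. Of the 10 receptors, 5 were above the median of all genes, which here and below is that of the genes with a region. Of all 20020 protein-coding genes, 7541 (37.7%) were above it, a share to be read beside each such count of a list. The median over the 9 receptors with a region was 19.0. The receptors as a list therefore sat near the middle of all genes with a region, while single receptors were spread from percentile 2.88 (GLP1R) to percentile 90.2 (PTGER3) of all genes with a region.

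**Figure D1:**
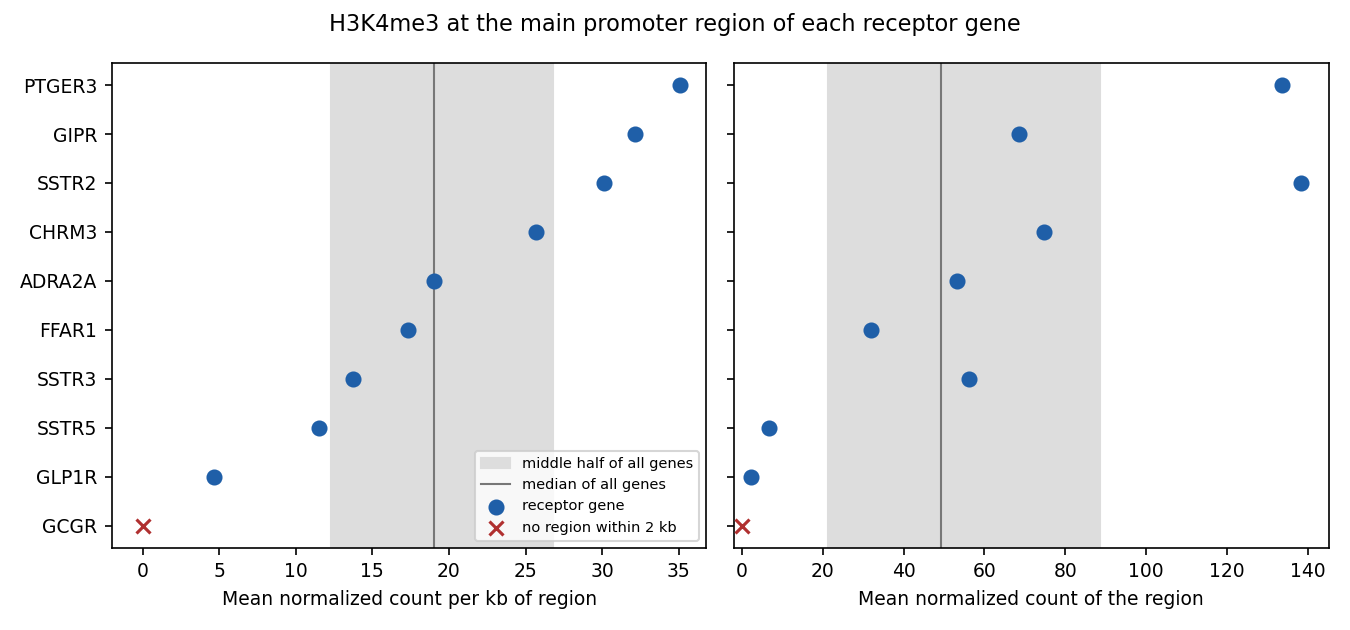
H3K4me3 at the main promoter region of each receptor gene, as the mean normalized count per kb (left) and as the mean normalized count of the whole region (right), both averaged by the authors over 8 samples. The grey band spans the quartiles of all 15085 genes with a region (12.3 to 26.8 per kb on the left), the line is their median, and the cross marks GCGR, which had no region within 2 kb. PTGER3, GIPR and SSTR2 lie above the band on the left, and SSTR5 and GLP1R lie below it in both panels.

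Among the receptors of the incretin and glucagon hormones, which couple to Gs, the mark was strong at one gene and weak or undetected at the others. GIPR, the receptor of glucose-dependent insulinotropic polypeptide, had a main region on chromosome 19 (45667648 to 45669783), 2135 bp wide, which ran from 573 bases before the canonical start site to 1562 bases after it and covered parts of exons 1 and 2. Its mean normalized count was 68.6 (percentile 63.9 of the genes with a region), or 32.1 per kb (percentile 86.2). A further region within GIPR, over exons 13 and 14, had a mean normalized count of 2.39.

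GLP1R, the receptor of glucagon-like peptide 1, had a single region near its start site, on chromosome 6 (39049054 to 39049554). This region was 500 bp wide, began 273 bases after the start site and lay in intron sequence, touching no exon of the canonical transcript. Its mean normalized count of 2.32 sums to 18.6 normalized counts over the 8 samples, and only 2.29% of all genes with a region had a lower count. The RefSeq promoter printed above did not overlap it. The highest count of a region overlapping GLP1R lay at its other end, where a region from 39090935 to 39092406 over the last exon had a mean normalized count of 15.7 (10.7 per kb).

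GCGR, the glucagon receptor, on chromosome 17 (81804132 to 81814008), had none of its 6 start sites within 2 kb of a region and no region inside the gene. The nearest region was 4280 bases from a start site, beyond the end of the gene, and had a mean normalized count of 3.02. A gene with no region is one near which the authors' table lists none, and a low level of the mark is not excluded by it.

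FFAR1 encodes a receptor of long-chain free fatty acids that couples to Gq. Its main region on chromosome 19 (35348325 to 35350168) did not reach the start site. It began 423 bases downstream, was 1843 bp wide and lay wholly in exon 1, upstream of the coding sequence, with a mean normalized count of 31.9 (17.3 per kb, percentile 43.3). The RefSeq promoter of FFAR1, with 9 CpG dinucleotides, was not overlapped by a region.

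A second FFAR1 region fell outside the 2 kb limit. It began 2864 bases after the start site, was 5923 bp wide (35350766 to 35356689) and covered all 900 coding bases of FFAR1. Its mean normalized count was 101 and its level 17.0 per kb, so it was stronger in all but no denser than the main region. The same region was the main promoter region of FFAR3, a receptor of short-chain fatty acids, whose start site lay 1771 bases from it. Its signal cannot be divided between both genes on these values.

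CHRM3, the M3 muscarinic acetylcholine receptor through which acetylcholine acts on Gq, had its region on chromosome 1 (239385506 to 239388419). The region was 2913 bp wide and ran from 1062 bases before the canonical start site to 1851 bases after it. Its mean normalized count was 74.8, or 25.7 per kb, at percentile 71.7. CHRM3 spans 528888 bp and has 12 annotated start sites, but no other region lay within 2 kb of any of them. The other 2 regions in the gene had mean normalized counts of 1.56 and 11.3.

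The receptors that restrain secretion through Gi or Go differed among themselves. PTGER3, the EP3 receptor of prostaglandin E2, had the densest region of the 10 genes, on chromosome 1 (71044745 to 71048562). It was 3817 bp wide, ran from 746 bases before to 3071 bases after the start site, covered 897 coding bases of exon 1 and had a mean normalized count of 134 (35.1 per kb). Another 9 regions lay inside the 195464 bp of PTGER3, more than in any other of the 10 genes, with mean normalized counts of 1.09 to 24.2, and each of them was weaker per kb than the main region.

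ADRA2A, the alpha-2A adrenergic receptor that responds to adrenaline and noradrenaline, is a gene of 1 exon on chromosome 10. Its main region (111075784 to 111078586) was 2802 bp wide, extended from 1245 bases before to 1557 bases after the start site and had a mean normalized count of 53.3 (19.0 per kb). A weaker region over the rest of the exon began 2060 bases after the start site, just beyond the 2 kb limit, with a mean normalized count of 24.6 (10.1 per kb). Among the regions of the 10 receptors, the one closest to the limit on its inner side was the weaker SSTR5 region at 669 bases.

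The somatostatin receptors, through which somatostatin of delta cells inhibits insulin release, fell from SSTR2 to SSTR5. SSTR2 had the highest mean normalized count of the 10 genes, 138, in a region on chromosome 17 (73164218 to 73168812). This region was 4594 bp wide, ran from 792 bases before to 3802 bases after the start site and reached 30.1 per kb. It covered exon 1 and the beginning of the intron but no coding base, since the coding sequence lies in exon 2.

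SSTR3, on the minus strand of chromosome 22, had a region of similar width, 4096 bp (37209475 to 37213571), with a mean normalized count of 56.2. Its level of 13.7 per kb was below the median of all genes (percentile 29.7), although its count was above it (percentile 55.2). This region held both annotated start sites of SSTR3. A narrow region of 886 bp, 6419 bases upstream of the canonical start site (37218896 to 37219782), was denser, at 36.2 per kb, with a mean normalized count of 32.1 and no annotated start site in it.

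SSTR5, on chromosome 16, had no region at its canonical start site at 1072747. Its main region (1078026 to 1078608) lay 218 bases upstream of the other start site, at 1078826, and was 582 bp wide, with a mean normalized count of 6.69 (11.5 per kb). A weaker region (1079495 to 1079995) lay downstream, mostly in coding sequence, with 466 coding bases and a mean normalized count of 2.26. At SSTR5 the mark was therefore seen beside the downstream start site alone. It lay at percentile 9.69 of the genes with a region by count and at percentile 22.0 by level per kb.

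**Figure D2:**
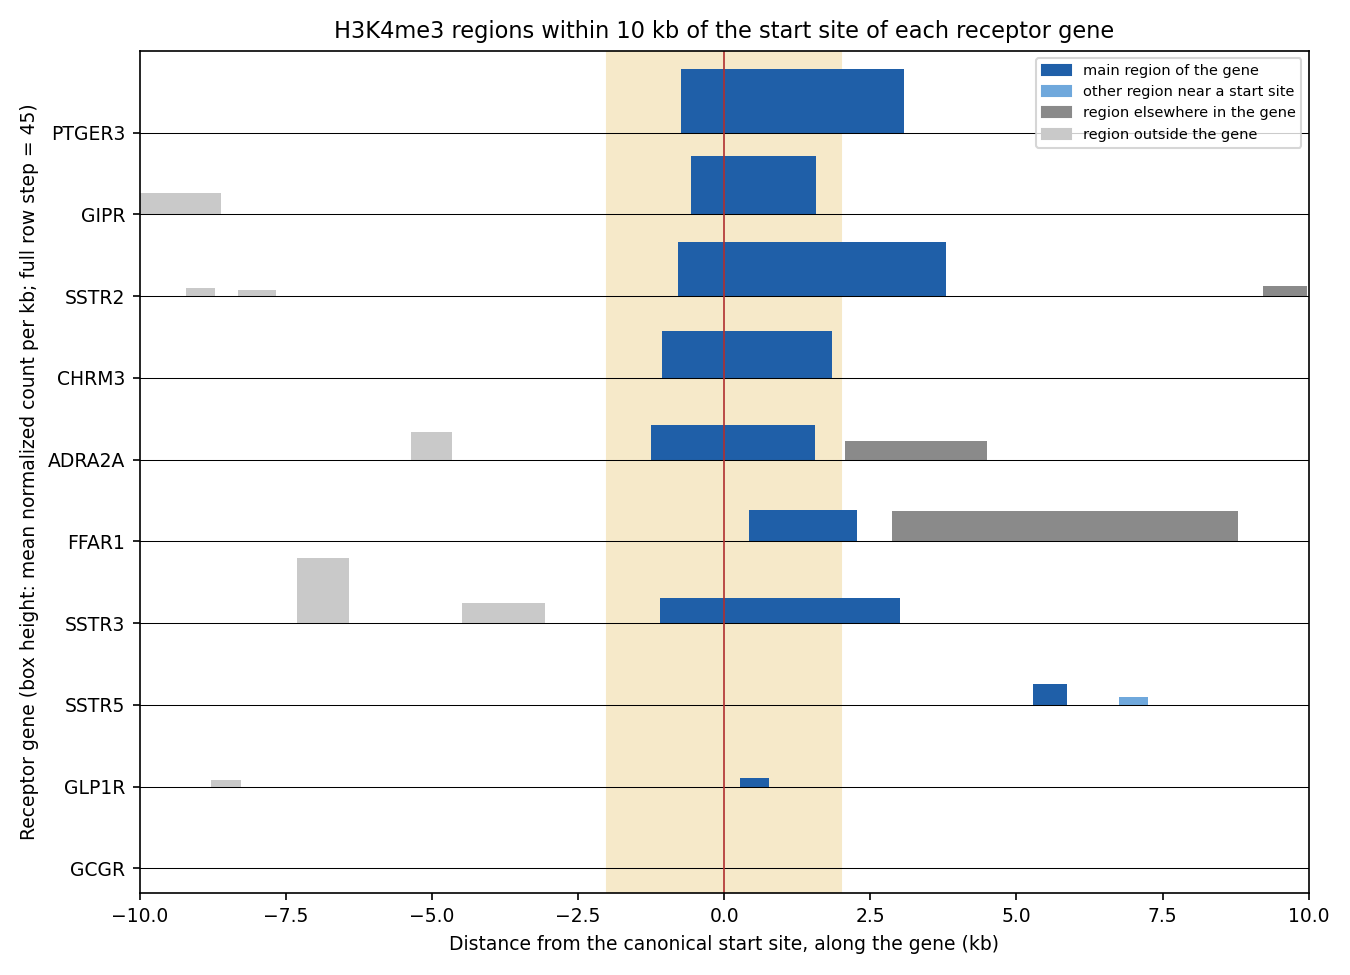
H3K4me3 regions within 10 kb of the canonical start site (red line) of each receptor gene, drawn along the direction of transcription. Box width is the width of the region, box height is its mean normalized count per kb, and the shaded band is the 2 kb limit around the canonical start site. The regions of PTGER3, GIPR, SSTR2, CHRM3, ADRA2A and SSTR3 span the start site, those of FFAR1 and GLP1R begin after it, those of SSTR5 lie more than 5 kb downstream beside its other start site, and GCGR has none.

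None of the 9 main regions was the main promoter region of another protein-coding gene. The main regions of GIPR, FFAR1, ADRA2A, CHRM3, SSTR3, SSTR5, PTGER3 and GLP1R held no start site of any other annotated gene, and that of SSTR2 held the start site of 1 noncoding gene, ENSG00000264860. Reads of MINT-ChIP carry no strand of transcription, so the signal of that region cannot be divided between both.

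The receptors were then set beside the others of their families, 20 genes of which 12 (60%) had a region. Over all protein-coding genes this share was 75.3%, to be read beside each count of genes with a region here and below. In the glucagon family, GIPR (32.1 per kb) was followed by VIPR2 (16.8) and VIPR1 (16.7), the receptors of vasoactive intestinal peptide, by GHRHR (15.8), the receptor of growth hormone-releasing hormone, by SCTR (14.6), the secretin receptor, and by GLP1R (4.65). The genes GCGR, GLP2R and ADCYAP1R1 had no region, so 6 of 9 genes of this family had one. VIPR2 and GHRHR had few counts for their density, with mean normalized counts of 9.51 and 9.03 in regions of 565 and 572 bp.

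All 4 free fatty acid receptors had a region, at 18.8 per kb for FFAR4, 17.3 for FFAR1, 17.0 for FFAR3 and 8.97 for FFAR2. The FFAR3 region is the one over the FFAR1 coding sequence described above, 1771 bases from the FFAR3 start site. Of the alpha-2 adrenergic receptors only ADRA2A had one, and neither ADRA2B nor ADRA2C did. Among the muscarinic receptors CHRM3 (25.7 per kb) was followed by CHRM4 (20.8) and CHRM2 (12.7), and CHRM1 and CHRM5 had no region.

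Among the somatostatin receptors, SSTR1 matched SSTR2 in level per kb (30.3 and 30.1) and had the wider region, 6578 bp, with a mean normalized count of 199. SSTR4 had no region. Among the prostaglandin E2 receptors, PTGER3 (35.1 per kb) was above PTGER4 (21.5) and PTGER2 (20.1), which couple to Gs, and PTGER1 had no region. In 4 of the 6 families the highest level belonged to one of the 10 receptors, namely GIPR, ADRA2A, CHRM3 and PTGER3. In the other families FFAR4 and SSTR1 were highest. The 10 receptors were 10 of the 30 family genes, and every family held at least one of them. Of the 21 family genes with a region, 9 were among the 10 receptors, and ADRA2A was the only one in its family.

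**Figure D3:**
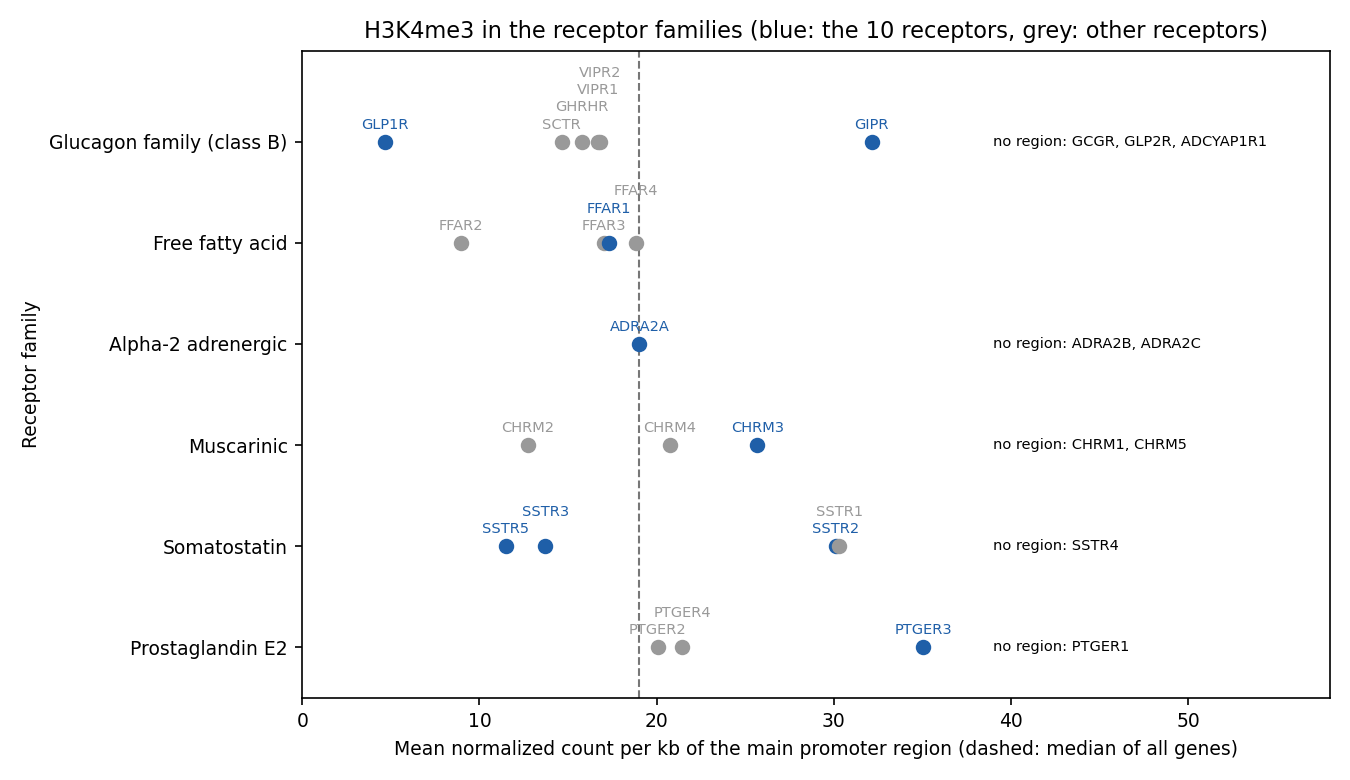
Mean normalized count per kb of the main promoter region of 30 receptor genes, by receptor family, with genes that had no region named at the right. Blue points are the 10 receptors and grey points the others, and the dashed line is the median of all genes, 19.0 per kb. GIPR stands far above GLP1R in the same family, and SSTR2 and SSTR1 nearly coincide.

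A wider list of 22 other receptors with a known action in islets had a median of 14.8 per kb over the 18 with a region, and 5 were above the median of all genes. Their highest levels were at LGR4 (37.8 per kb), a receptor of R-spondins, CASR (28.2), the calcium-sensing receptor, and HTR1D (25.3), a serotonin receptor. NPY1R, HTR2B and DRD3 were among the 4 without a region.

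Genes that act below the receptors were listed by pathway. All 22 genes of the Gs and cyclic AMP list had one, with a median of 17.3 per kb and 9 above the median of all genes. The highest were PRKAR1A (40.2 per kb), a regulatory subunit of protein kinase A, GNAS (38.4), the Gs alpha subunit, and CRTC2 (37.8), a coactivator of CREB. All 18 genes of the Gi and Go list had one too, with a median of 19.2 per kb and 9 above the median of all genes, led by KCNJ3 (36.2), a G protein-gated potassium channel subunit, RGS4 (34.3), which speeds the return of G alpha subunits to their inactive state, and GNAI3 (29.3), a Gi alpha subunit.

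In the Gq and phospholipase C list 16 of 18 genes had a region, with a median of 19.4 per kb and 8 above the median of all genes. ITPR2 (40.0 per kb), an inositol trisphosphate receptor, DGKA (36.3), a diacylglycerol kinase, and GNAQ (33.0), the Gq alpha subunit, were the highest, and PLCB3 and PRKCB had none. The list of receptor desensitization split into GRK5 (42.1 per kb), GRK4 (38.5) and GRK6 (21.9), kinases that phosphorylate active receptors, above the median of all genes. ARRB1 (8.41) and ARRB2 (10.7), the beta-arrestins, GRK2 (12.1) and GRK3 (10.7) were below it. The regions of GRK4, DGKA and, in the Gi and Go list, GNAI3 were each also the main region of another protein-coding gene. Their signal cannot be divided between the genes on these values.

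Of the genes for peptide ligands, GCG, which encodes glucagon and glucagon-like peptide 1, had 6.99 per kb (mean normalized count 5.30) and SST, which encodes somatostatin, 11.0 per kb (21.9). GIP and CORT had no region.

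**Figure D4:**
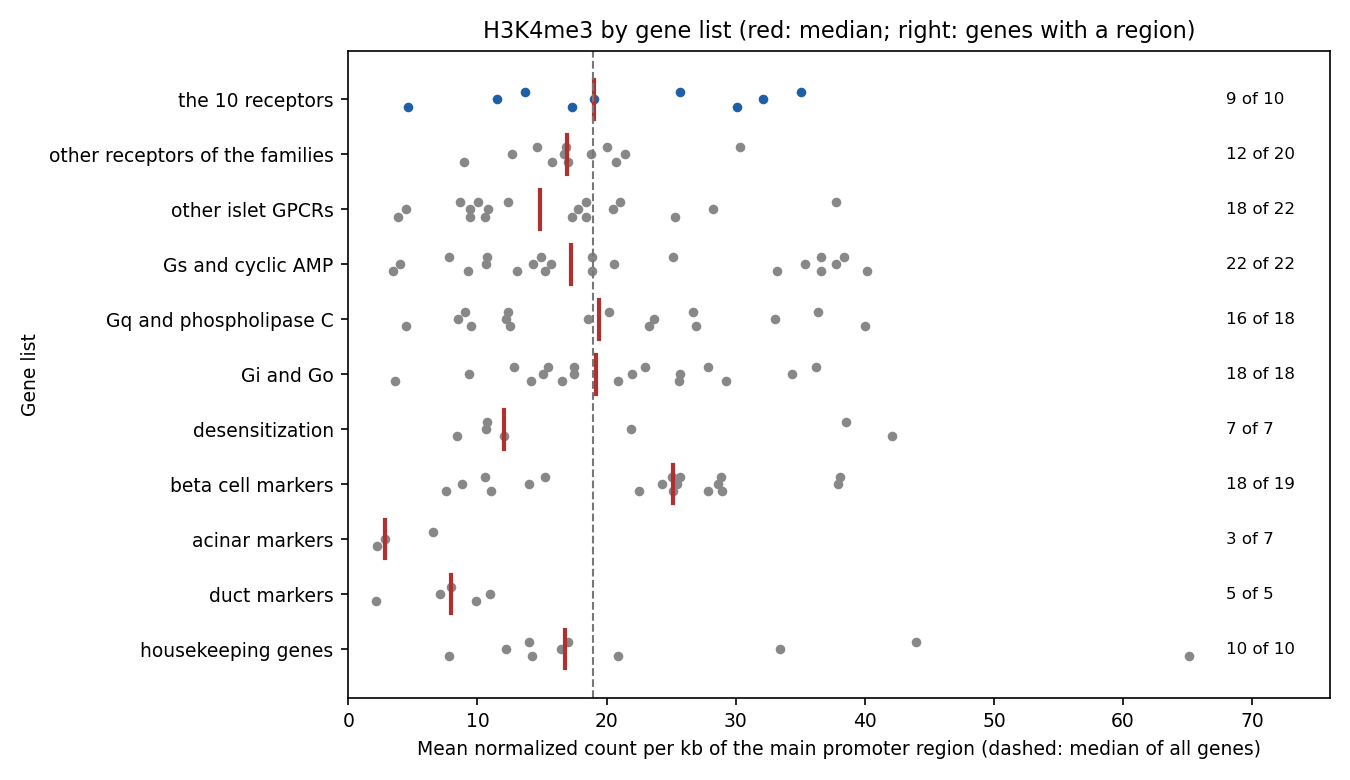
Mean normalized count per kb of the main promoter region of each gene, by gene list, with the list median in red and the number of genes with a region at the right. The dashed line is the median of all genes. The 10 receptors spread around that line, the beta cell markers lie mostly to its right (median 25.1), and the acinar and duct markers lie to its left. The ligand, alpha, delta, blood and hepatocyte lists are not drawn.

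The labelled cell type was checked on marker genes. Of 19 beta cell markers 18 had a region, with a median of 25.1 per kb and 12 above the median of all genes, with ISL1 at 38.1 and PCSK1 at 28.9, and MAFA had none. The other 6 lay below that median, and named after their values were seen these were IAPP (7.56 per kb), G6PC2 (8.81), KCNJ11 (10.6), ABCC8 (11.1), SLC2A2 (15.3) and INS (a mean normalized count of 24.7 in a region of 1765 bp shared by 3 genes). Of 7 acinar markers 3 had a region (at most 6.59 per kb), and the 5 duct markers reached at most 11.0 per kb, a range that also held IAPP, G6PC2 and KCNJ11. Of 5 alpha cell markers 4 had one, with IRX1 at 33.3 and IRX2 at 31.5 above the median of all genes and GCG at 6.99 and POU3F4 at 5.43 below it. All 4 delta cell markers had one, with SST at 11.0 and LEPR the highest at 24.7. Of 7 blood and endothelial markers CD68 (31.9 per kb, above the median of all genes) and PECAM1 (15.3) had a region. Of 5 hepatocyte markers APOA2 (18.7) and SERPINA1 (5.28) had one. The regions of LEPR, CD68 and APOA2 were also the main regions of a neighbouring protein-coding gene. All 10 housekeeping genes had one, with a median of 16.8 per kb, a range of 7.80 to 65.1 and 4 above the median of all genes. Promoters with H3K4me3 need not be transcribed, so a region is not a measure of expression.

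RefSeq promoters of 300 bases were found for 9 of the 10 receptors. PTGER3 was not matched. Of 3576 protein-coding promoters with at least as many CpG as GLP1R (33), 93.2% belonged to a gene with a region, and 7.58% to a gene that had none or one with a count no higher than that of GLP1R. Of 502 promoters with at least as many as GCGR (47), 10.6% belonged to a gene without a region.

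The reverse case was GIPR. Of 4721 promoters with at most its 12 CpG dinucleotides, 45.8% belonged to a gene with a region, and the median level there was 14.6 per kb, against 32.1 at GIPR. The other receptor promoters held 27 CpG at SSTR2, 18 at CHRM3, 18 at SSTR5, 9 at FFAR1 and 11 at the canonical start site of SSTR3, with 4 at its other RefSeq start site. Across all promoters with a region, the median level per kb was 17.0 for those with up to 17 CpG and 21.9 for 18 to 25. It was 20.5 for 26 to 34 and 18.5 for 35 to 69, so the level did not rise steadily with CpG number. Over all genes with a region, the Spearman correlation of level per kb with the GC content of the region was -0.34. The main regions of SSTR5 (68.2% GC), GLP1R (66.2%) and ADRA2A (64.5%) were above the 95th percentile of all genes (64.4%). The promoter sequences of GCGR and GLP1R were 77.3% and 75.3% GC, against a median of 63%. Whether GC content bears on the level was not tested.

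**Figure D5:**
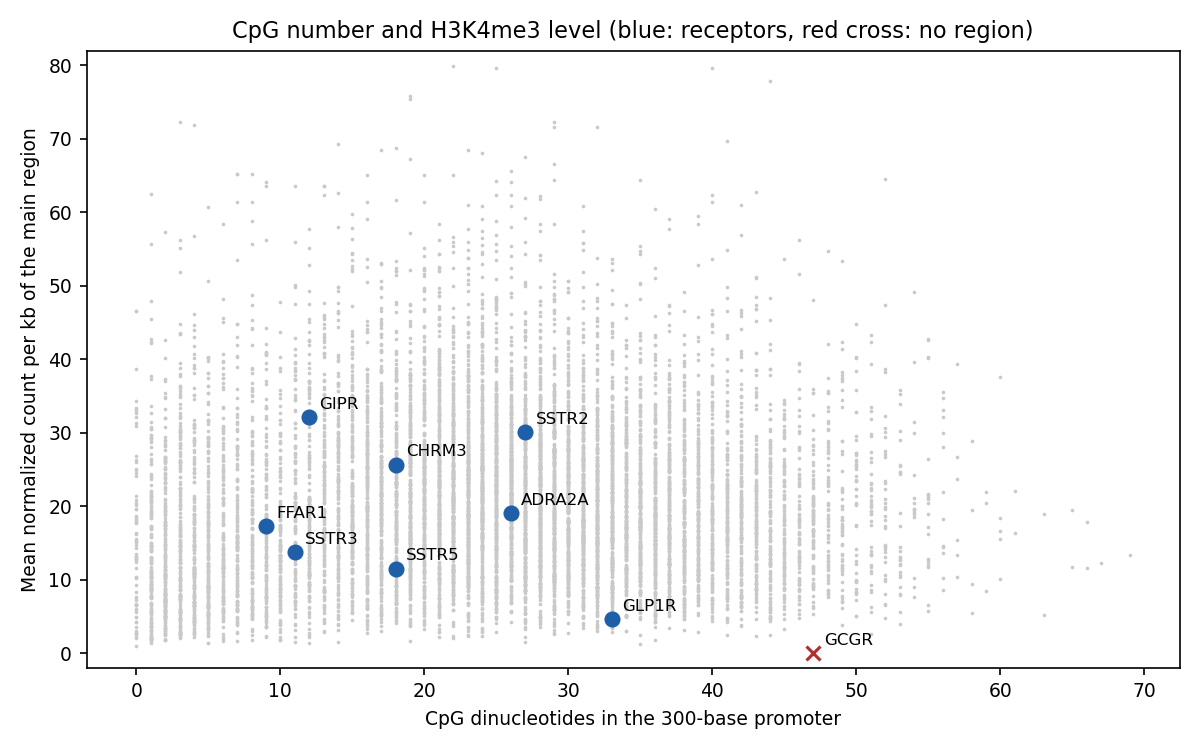
Number of CpG dinucleotides in the 300-base RefSeq promoter (x axis) and mean normalized count per kb of the main region (y axis) for all genes with both (grey; 14 genes above 80 per kb are not drawn) and for 9 receptors (blue, or a red cross at 0 for GCGR, which had no region). GLP1R and GCGR lie at the lower right, with 33 and 47 CpG, and GIPR lies at the upper left of the receptors with 12.

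Short motifs were searched on both strands of these promoters, with positions counted from the start site in the direction of the gene. The GC box (GGGCGG), bound by SP1, was found in 6 of the 9 promoters, those of GLP1R, GIPR, GCGR, ADRA2A, SSTR2 and SSTR3, and in 59.2% of all protein-coding promoters. GCGR had 5 matches and GLP1R 3. A TATA box (TATAAA) was found in ADRA2A, where it began 29 bases before the start site, and in 9.63% of all promoters. A CCAAT box (CCAAT) was found in FFAR1 and in 36.6% of all promoters. For SSTR3 the promoter at the canonical start site was used.

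Motifs of beta cell and other factors were each found in at most 1 of the 9 promoters. Part of the MAF recognition element (TGCTGA) was found in ADRA2A (15.2% of all promoters) and the E-box CAGATG of NEUROD1 in SSTR3 (11.5%). The cyclic AMP response element (TGACGTCA, 2.64% of all promoters), a homeodomain core (TAATTA, 3.28%), part of the HNF1 element (GTTAAT, 5.26%) and part of the REST element (CAGCACC, 7.69%) were found in 0 of the 9. These searches describe the letters of 300 bases only.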

How the data were processed

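H3K4me3 was measured by MINT-ChIP in 8 samples (4 non-senescent and 4 senescent) of EndoC-βH3 cells. Per the methods, reads were mapped by Bowtie2 on hg38 and handled in samtools, and H3K4me3 peaks came from HOMER. The authors' deposited H3K4me3 comparison of senescent with non-senescent samples has the columns of DESeq2. Tool versions, peak merging and counting are not given in the sources used here. The deposited signal of a region is the authors' mean of DESeq2-normalized counts over the samples, not divided by width. The table's columns of fold change, standard error, test score, p-value and adjusted p-value hold the authors' own comparison and were not used, so senescent and non-senescent cells are not compared here. The table does not state whether its region starts count from 0 or 1. Coordinates are printed as deposited.

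All 97545 regions lay within the hg38 sequences. GENCODE 44 gave the start sites, taken from all transcripts of each protein-coding gene. The level per kb is the mean normalized count divided by width in kb. A percentile is the percentage of the 15085 genes with a region that had a lower value. Genes of equal value, the gene itself among them, were counted in part. Promoters are RefSeq sequences of GRCh38.p14. Members and gene lists were chosen with earlier results of these data known. The genes named are the 10 receptors, all genes of the family, ligand and desensitization lists, and of other lists the 3 highest and up to 3 without a region. Some marker genes are not reported here by name. The region rule was tested on simulated data. Python 3.11.15, numpy 2.4.6, pandas 2.3.3, scipy 1.17.1 and matplotlib 3.10.9 were used. Alternatives were windows of 1 kb and 5 kb, a count minimum of 10, a larger overlap, canonical start sites and other choices of region.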

Additional observations from a re-analysis of the deposited data

How the results depend on the processing

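The number of receptors with a region was 9 and the number above the median of all genes 5. Under the alternatives these were 7 to 10 and 4 to 6, within 1.5 times. The 5 kb window gave GCGR a region, a count minimum of 10 removed GLP1R and SSTR5, and canonical start sites alone removed SSTR5. The median level of the receptors was 19.0 per kb. It became 18.0 with the 5 kb window (18.8 over all genes), 25.7 with the count minimum (20.9) and 22.4 with canonical start sites (19.0). As a mean normalized count not divided by width it was 56.2 (49.2 over all genes). The other alternatives left it as it was. One of them, start sites of protein-coding transcripts only, was chosen after seeing the data. Of 78 single receptor levels, 76 kept their value; FFAR1 took its wider region under the 5 kb window (17.0 per kb), and SSTR5 fell to 8.27 per kb with both of its regions together. Of 135 counts of list genes with a region, 10 moved by over 1.5 times, all in lists of 4 to 7 genes. The beta cell list fell from 18 to 12 genes with the larger overlap, which reached that limit without passing it. With the count minimum the acinar list had 0 genes, the duct list 2, the alpha list 2, the ligand list 1 and the hepatocyte list 1. The ligand and hepatocyte lists each had 1 with the 1 kb window, the hepatocyte list 4 with the 5 kb window and 1 with the larger overlap, and the blood list 1 with canonical start sites.

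No paired analysis was possible because the level of a region is a mean over all 8 samples, and no replicate was left out for the same reason. Depth per sample is unknown.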
